A study of Mus musculus with 6 samples.

Results

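This account covers 10 genes that the literature ties to effector and innate-like lymphocytes, as measured in CD4+CD8+ double-positive thymocytes with and without a Sox13 transgene. They are the granzyme genes Gzma and Gzmb, the cysteine-rich protein gene Plac8, the calcium-binding protein genes S100a6 and S100a4, the galectin gene Lgals1, the PDZ and LIM domain gene Pdlim4, the surface receptor genes Cd7 and Il2rb and the transcription factor gene Maf. All probe sets annotated to 1 of these genes alone were taken, giving 25 probe sets among 25470 in all, for 10 genes among 8511 with a name. The genes were chosen partly from their ratios in these arrays, so their values are a description and no test is given for them.

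The comparison was between genotypes on the C57BL/6 background. The transgenic group was female mice of 6 weeks with a Sox13 transgene, a construct that expresses an HMG-box transcription factor of the gamma-delta T cell lineage. The control group was wild-type female littermates of the same age. Double-positive cells of at least 2 mice were pooled for each sort and lysed without culture, and the promoter that drives the transgene is not given in the sources used here. Experiment 1 was run on Mu11K A together with Mu11K B, whose probe sets differ and which are counted as 1 replicate, and experiment 2 on U74A version 2. Whether the A and B arrays of a genotype received the same RNA is not given in the sources used here. Each array type had 1 array per genotype, 6 arrays in all, so each experiment gives 1 ratio per probe set and the number of arrays limits the precision. Intensities were scaled to a trimmed mean of 500 per array, and 100 was set as the floor below which a signal was not read. Where a genotype lay under the floor, the fold is written "at least", since only its lower limit is known; a mean over probe sets that includes such a value is a limit too.

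Granzymes are serine proteases stored in cytotoxic granules with perforin and with the proteoglycan serglycin, and natural killer cells, activated CD8 T cells and several innate-like T cells are their usual sources. Il2rb encodes the beta chain shared by the receptors for IL-2 and IL-15, on which natural killer cells and innate-like T cells depend. Conventional double-positive thymocytes are the stage at which alpha-beta receptors are tested, before effector genes are normally switched on.

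The arrays were checked against the labels through Sox13 and the markers of the sorted cells. Sox13 was read at 5951 in the transgenic sample and under the floor in the wild-type one of experiment 1, and at 3832 and 599.6 in experiment 2, although the labels describe the wild-type cells as not expressing it. The coreceptor genes that define the gate were bright in every sample that had a probe set for them, with Cd4 at 7854 and 7876 in experiment 1 and at 5040.1 and 6496 in experiment 2, and Cd8a at 15638 and 16859 and at 15638 and 17759, the transgenic sample given first. Experiment 1 was the wider of the 2 experiments: the SD of log2 ratios over 3237 genes was 0.78, against 0.33 in experiment 2. When a gene had a pair of probe sets on the same arrays, both above the floor, their log2 ratios differed by a median of 0.27 in experiment 1 (352 pairs) and of 0.23 in experiment 2 (645 pairs), with a 90th percentile of 0.91 and 0.61. In bulk RNA, more cells of a type and more RNA per cell cannot be told apart.

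Upstream sequences from RefSeq (GRCm38.p6) were found for 6 of the 10 genes in 7 windows, each the 250 bases before an annotated start. Those of Gzma, Plac8 and S100a6, whose levels are described below as higher in the transgenic samples, are shown with that of S100a4. Its start lies 9.12 kb from that of S100a6 on the same strand. Capitals mark a match to the Sox core motif AACAAT or to the TCF and LEF core motif ATCAAAG on either strand.
Gzma (chr13:113100982-113101231, minus strand): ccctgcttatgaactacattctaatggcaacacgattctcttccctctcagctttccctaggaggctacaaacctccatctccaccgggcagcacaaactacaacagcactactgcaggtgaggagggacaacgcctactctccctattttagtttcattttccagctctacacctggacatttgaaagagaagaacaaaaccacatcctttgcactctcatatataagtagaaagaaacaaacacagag
Plac8 (chr5:100572206-100572455, minus strand): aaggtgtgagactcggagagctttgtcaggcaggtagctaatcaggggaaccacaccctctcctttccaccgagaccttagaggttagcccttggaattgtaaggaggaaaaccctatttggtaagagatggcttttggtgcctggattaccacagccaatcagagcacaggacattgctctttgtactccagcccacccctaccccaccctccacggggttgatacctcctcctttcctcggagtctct
Plac8 (chr5:100563097-100563346, minus strand): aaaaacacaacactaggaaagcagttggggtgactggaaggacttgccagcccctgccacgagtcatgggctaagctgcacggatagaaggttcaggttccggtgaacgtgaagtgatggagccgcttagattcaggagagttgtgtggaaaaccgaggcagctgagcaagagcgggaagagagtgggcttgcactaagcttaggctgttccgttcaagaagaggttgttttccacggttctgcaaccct
S100a6 (chr3:90612644-90612893, plus strand): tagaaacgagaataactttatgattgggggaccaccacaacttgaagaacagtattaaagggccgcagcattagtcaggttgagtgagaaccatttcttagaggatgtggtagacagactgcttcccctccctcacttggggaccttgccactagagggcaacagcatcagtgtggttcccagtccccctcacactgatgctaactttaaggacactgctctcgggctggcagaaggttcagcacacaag
S100a4 (chr3:90603520-90603769, plus strand): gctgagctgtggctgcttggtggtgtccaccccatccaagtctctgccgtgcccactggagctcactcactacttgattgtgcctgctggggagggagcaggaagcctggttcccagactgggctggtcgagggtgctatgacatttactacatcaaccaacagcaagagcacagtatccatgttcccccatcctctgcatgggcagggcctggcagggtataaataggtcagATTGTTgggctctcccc
The only match in the 7 windows was AACAAT on the minus strand of S100a4, starting at position -17 from the annotated start. Of all 32851 windows of this length in the table, 9.42% held AACAAT and 3.21% held ATCAAAG. The windows of Gzmb and Pdlim4, not shown, held neither. A match is only a description of these letters.

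Of the 10 genes, 5 were higher in transgenic cells by a log2 ratio of about 1 or more in both experiments: Plac8, Gzma, Pdlim4, S100a6 and Cd7. Lgals1 was close to equal in both experiments and S100a4 in experiment 1, with only a lower limit for S100a4 in experiment 2. Maf was lower in the transgenic sample of experiment 1 and at the floor in experiment 2. Il2rb lay at or near the floor, and Gzmb was at the floor throughout. All 10 had a probe set in each experiment, and 8 of them were above the floor on at least 1 array in experiment 1 and 8 in experiment 2, with 7 above it in both. In experiment 1, 4 of the 10 were 2-fold or more higher and 1 was 2-fold or more lower, where 5.25% of 3927 genes above the floor were higher and 11.7% lower. In experiment 2 the numbers were 5 and 0, where 0.855% of 5377 genes were higher and 0.446% lower. Over all genes with a probe set, counted as the 10 are, the share higher was 3.36% of 6137 in experiment 1. It was 0.558% of 8251 in experiment 2. Both experiments had 4 of the 7 members measured in both at 2-fold or more higher, beside 0.432% of the 3237 genes measured in both. Over all probe sets of an array type, the share 2-fold or more higher was 2.72% for Mu11K A, 3.36% for Mu11K B and 0.555% for U74A, and the share lower by as much was 6.99%, 7.61% and 0.322%. Since the members were picked with these ratios known, nothing is read from those shares. With genes at the floor counted as 0, the median log2 ratio of the 10 was 0.56 in experiment 1 and 0.67 in experiment 2, and that of all genes with a probe set was 0 in both.

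**Figure D1:**
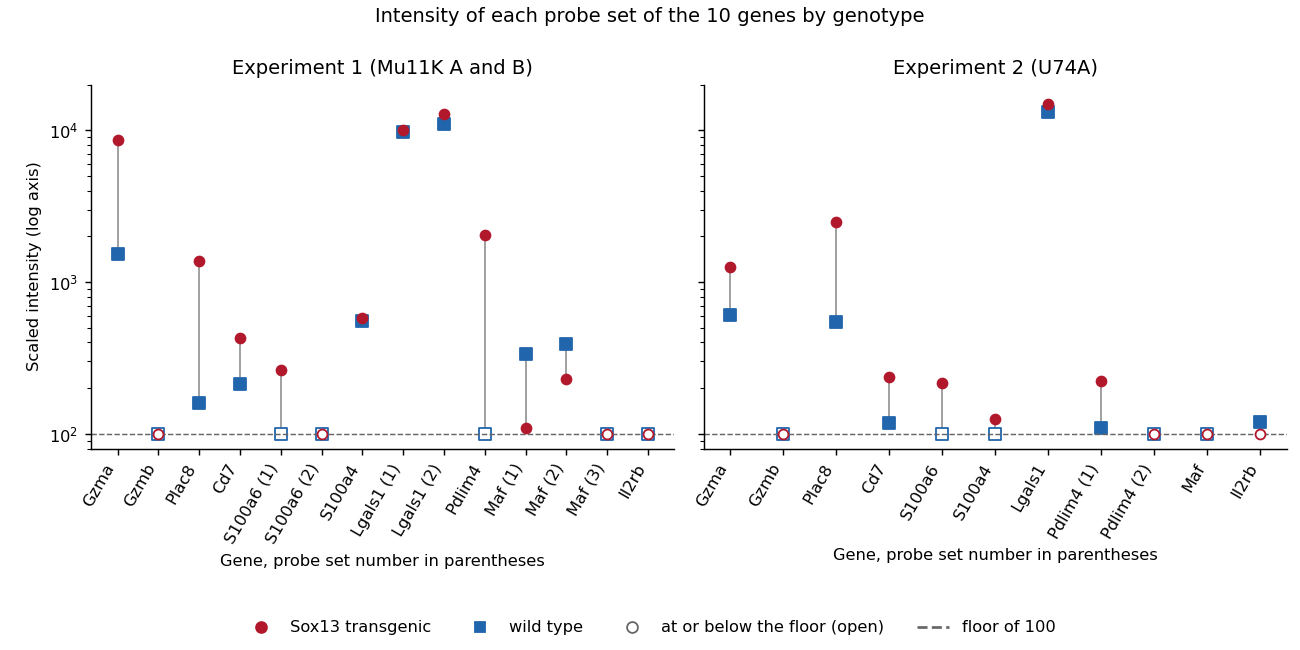
Scaled intensity (log axis) of every probe set of the 10 genes in the transgenic (circles) and wild-type (squares) sample of each experiment, with open symbols at the floor of 100. Plac8, Gzma and Cd7 lie above the floor in both genotypes and are brighter in the transgenic sample, Lgals1 has nearly the same intensity in both, and Gzmb is at the floor everywhere.

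Of the granule proteases, Gzma was bright and Gzmb was not detected above the floor. Gzma encodes granzyme A, a tryptase-like protease. Its probe set on Mu11K B read 8604 in the transgenic and 1535 in the wild-type sample, a 5.60-fold difference that ranked 13 from the highest among 3927 genes. The U74A probe set read 1262 and 605.2, a 2.08-fold difference that ranked 38 from the highest among 5377 genes. The transgenic sample was the brighter in each experiment, and the wild-type signal was itself well over the floor in both. Both probe sets carry the suffix that Affymetrix gives to probes shared by several transcripts, so related transcripts may contribute. The same suffix is on the experiment 1 probe sets of Plac8, Cd7, Pdlim4, S100a6, S100a4, Gzmb and Il2rb. It is also on the Mu11K A probe set of Maf. The U74A probe sets of these genes do not carry it. Gzmb encodes granzyme B, which cleaves after aspartate and is the main death-inducing granzyme. It read -4.02 and -2.22 on Mu11K A and 81.7 and 12.9 on U74A, transgenic first, all below the floor of 100, so no fold is given.

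Most other genes of the granule pathway were at the floor. Of a list of 26 genes, 20 had a probe set and 6 were above the floor in at least 1 experiment. The lysosomal membrane gene Lamp1 was bright: the probe sets of experiment 1 read 3204 and 4022 in the transgenic and 2376 and 3283 in the wild-type sample, and that of experiment 2 read 4578 and 4856, transgenic first. Srgn, the gene of serglycin, read 5672 and 5557 in experiment 1 and 237.2 and 229.0 in experiment 2. The remaining granzyme genes with a probe set, Gzmd, Gzmf, Gzmg, Gzmk and Gzmm, were at the floor in all samples, as was Prf1, which encodes perforin, read on U74A alone at 61.4 and 12.7. The interferon gamma gene Ifng and the chemokine genes Ccl5 and Xcl1 were likewise at the floor. Gzmc was above it in 1 sample, with 146.0 in the transgenic and less than 100 in the wild-type sample of experiment 1 (at least 1.46-fold). The log2 ratios of Srgn were 0.03 and 0.05 in experiments 1 and 2, and those of Ctsc, the protease that activates granzymes, were -0.84 and 0.13. The probe sets of Ctsc above the floor in experiment 2 had opposite signs (0.45 and -0.20). Serpinb9, whose product inhibits granzyme B, had 0.53 and 0.09, and Lamp2, a relative of Lamp1, was at least 1.44-fold lower in experiment 1 and had -0.09 in experiment 2. Of the 5 genes of this list tested over both experiments, limma called 0 higher and 0 lower after Benjamini-Hochberg adjustment, and 0 had an unadjusted p under 0.05, where 0.154% of all genes tested were called higher and 0% lower.

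Plac8 had the largest ratio that was measured in both genotypes of both experiments among the 10. The gene encodes a small cysteine-rich protein found in myeloid and lymphoid cells. On Mu11K A it read 1370.0 in the transgenic and 158.8 in the wild-type sample, 8.63-fold higher and rank 5 from the highest of 3927 genes. On U74A it read 2483 and 548.5, 4.53-fold higher and rank 6 of 5377. The transgenic sample was the brighter in each experiment, and all 4 signals were above the floor. The mean log2 ratio over the 2 experiments was 2.64 with an SD of 0.66.

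The genes most alike to Plac8 and Gzma were sought among 3230 other genes, by the distance between the pairs of log2 ratios in both experiments. For Plac8 they were the globin genes Hbb-b2 (3.04 and at least 1.54, distance 0.64) and Hba-a1 (1.90 and 2.76, distance 1.34) and Socs3, an inhibitor of cytokine signaling (3.29 and 0.79, distance 1.40). For Gzma they were BC147527 (at least 2.52, and 0.75, distance 0.32), the ubiquitin-like gene Isg15 (2.04 and 1.20, distance 0.47) and Lgals3bp (2.17 and 0.47, distance 0.67), which encodes a galectin-binding glycoprotein. The likeness rests on 2 experiments, and the distances and ranks of Hbb-b2 and BC147527 were computed with 1 wild-type signal at the floor, so they depend on it.

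**Figure D2:**
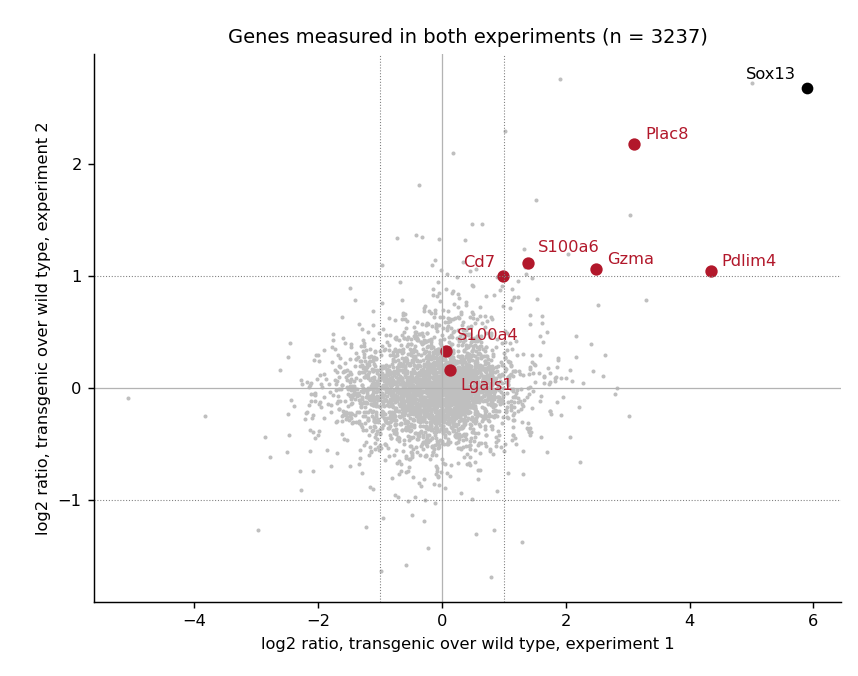
Log2 ratio of transgenic over wild type in experiment 1 (horizontal axis) and experiment 2 (vertical axis) for the 3237 genes measured in both (grey), with the 7 members measured in both in red and Sox13 in black; dotted lines mark 2-fold. Plac8, Gzma, S100a6 and Pdlim4 lie past 2-fold on both axes, Cd7 lies on the 2-fold lines, and S100a4 and Lgals1 lie near 0. Ratios with a genotype under the floor, such as those of S100a6, are drawn at their lower limit.

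Pdlim4 encodes an actin-associated adaptor with a PDZ and a LIM domain that binds alpha-actinin. In experiment 1 the transgenic sample read 2030.0 and the wild-type sample lay under the floor (86.5), at least 20.3-fold higher and rank 3 from the highest. In experiment 2 the first probe set read 224.4 and 109.0, a 2.06-fold difference, and the second was at the floor in both genotypes with 11.9 and 33.6. The experiments therefore differed widely in size, with log2 ratios of at least 4.34 and of 1.04, and the wild-type signal of experiment 2 lay just over the floor. With the second probe set averaged in, the log2 ratio of experiment 2 was 0.52, and with a floor of 200 it was 0.17.

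Among its relatives, the mean over probe sets was past 2-fold for 0 genes in either direction when limits were counted at their value. Pdlim1 had log2 ratios of 0.18 and -0.03, where its probe sets of experiment 2 had opposite signs (0.38 and -0.43). Actn1, an alpha-actinin gene, read 898.7 and 2249.6 with a probe set of experiment 1, 2.50-fold lower in the transgenic sample, read under the floor and 150.1 with a second one, and had a log2 ratio of -0.33 in experiment 2. Actn4 had 0.56 and 0.10. Actn3, a muscle isoform, was at least 1.70-fold lower in experiment 1, so a 2-fold difference cannot be denied there. A probe set of Pdlim7 was at least 1.56-fold lower in experiment 2 and another had -0.12. Of the 10 listed genes 8 had a probe set and 5 were above the floor, and of the 3 tested in limma 0 were called higher, 0 lower, and 0 had an unadjusted p under 0.05.

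The S100 members had unlike ratios in experiment 1, while those of experiment 2 are both lower limits. S100a6 and S100a4 encode small EF-hand proteins that bind calcium and interact with annexins and the cytoskeleton. On Mu11K A, S100a6 read 263.4 in transgenic cells and stayed under the floor in wild-type cells, at least 2.63-fold higher, while its other probe set, on Mu11K B, was at the floor in both genotypes. In experiment 2 it read 217.3 against a wild type below the floor, at least 2.17-fold higher. In both experiments the transgenic sample alone was above the floor, and its signal lay within 3 times that floor. The log2 ratio was 0.93 and 2.12 with a floor of 50 and 0.40 and 0.12 with a floor of 200, in experiments 1 and 2. With the floor of 50 the Mu11K B probe set also entered the average of experiment 1.

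S100a4 read 581.1 and 555.2 in experiment 1, transgenic first, a log2 ratio of 0.07. In experiment 2 the transgenic sample read 126.0 and the wild-type sample stayed under the floor (96.6), at least 1.26-fold higher. The difference of experiment 1 is under the 90th percentile of the differences between probe sets of 1 gene given above. That of experiment 2 is a lower limit, so it cannot be placed against that percentile.

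The rest of the S100 and annexin list held 19 genes, of which 17 had a probe set and 12 were above the floor. S100a10, the partner of annexin A2, had log2 ratios of 0.12 and -0.08, and Anxa2 of -0.28 and -0.10. Anxa6 had 1.46 in experiment 1 and -0.18 in experiment 2, Anxa7 0.19 and 0.75, Anxa1 -0.70 in experiment 1, and the large scaffold gene Ahnak at least 0.68 in experiment 2. A single gene of the list, Anxa6, was 2-fold or more higher in experiment 1 (1 gene), and 0 were in experiment 2. Among the 7 genes that limma tested, 0 were called higher, 0 were called lower and 0 had an unadjusted p under 0.05.

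Cd7, a surface glycoprotein of the immunoglobulin family on T and natural killer cells, had nearly the same ratio in both experiments. It read 425.5 and 214.2 on Mu11K A and 235.4 and 117.7 on U74A, transgenic first, which is 1.99-fold and 2.00-fold higher. Its log2 ratios of 0.99 and 1.00 placed it just under and just over the 2-fold line, at rank 211 of 3927 genes and rank 46 of 5377. The wild-type signal of experiment 2 lay just over the floor, and with a floor of 200 the log2 ratio of experiment 2 was 0.24.

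Lgals1 gave bright signals that were nearly equal in both genotypes. It encodes galectin-1, a lectin that binds beta-galactosides and acts on thymocyte survival. Its 2 probe sets of experiment 1 read 10077 and 9799, and 12829 and 11017, with log2 ratios of 0.04 and 0.22. On U74A it read 14861 and 13276, a log2 ratio of 0.16. The transgenic sample was the higher in each case by at most 1.16-fold, less than the median difference between probe sets of 1 gene. Under loess normalization the log2 ratio of experiment 1 was -0.02. The probe sets of experiment 1 carry the suffix for probes shared by a gene family.

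Of the other galectins, Lgals9 had log2 ratios of 0.05 and 0.19, Lgals4 of 0.29 and -0.01, and Lgals2 of -0.44 in experiment 2. Lgals3, the gene of galectin-3, had 1 of 3 probe sets above the floor in experiment 1, with 338.1 in the transgenic sample and less than 100 in the wild type (at least 3.38-fold higher), and was at the floor in experiment 2. Lgals3bp read 2337 and 519.2 in experiment 1 and 602.7 and 436.0 in experiment 2, or 4.50-fold and 1.38-fold higher in the transgenic sample. Of 3 tested genes in this list, none was called in either direction (limma, 0 and 0; 1 at an unadjusted p under 0.05), although Lgals3bp passed after median scaling.

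Maf encodes c-Maf, a basic leucine zipper factor that controls cytokine genes in helper and gamma-delta T cells. It was the member with the lowest ratio. In experiment 1 it read 109.2 in the transgenic and 337.7 in the wild-type sample on Mu11K A, 3.09-fold lower, and 228.6 and 387.5 on Mu11K B, 1.70-fold lower, while a further Mu11K B probe set was at the floor in both. The transgenic sample was the lower in each probe set above the floor. In experiment 2 the single probe set read 10.9 and 11.5, far below the floor, so this difference has no second measurement. The mean log2 ratio of experiment 1, taken over an A and a B array that may have received different RNA, was -1.20, which ranked 298 from the lowest of 3927 genes, and with the brightest probe set it was -0.76. It was above -1, short of 2-fold, in 7 of the 8 processing alternatives, and -1.20 in the other, which kept probe sets above the floor on both arrays.

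Mafg, Mafk and Bach1 were the measured genes of the Maf and Bach list. Mafg had lower limits of 1.31 and 0.30 for its log2 ratios, Mafk had ratios of at least 0.51 and -0.02, and Bach1, a partner of the small Maf proteins, of -0.97 and 0.76. For Bach1 the probe sets of experiment 1 differed, with -0.31 and -1.63. Of 10 listed genes 7 had a probe set and 3 were above the floor. Of those 3, 0 were called in limma in either direction and 1 had an unadjusted p under 0.05.

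Il2rb lay close to the limit of detection. It read 76.5 and 54.9 in experiment 1, both below the floor, and in experiment 2 below the floor in the transgenic sample (69.6) and 119.5 in the wild type, at least 1.20-fold lower. Il2ra, the alpha chain of the IL-2 receptor, was at the floor in all samples. Among the 18 genes listed for IL-2 and IL-15 signaling, 13 were above the floor, and 2 were 2-fold or more higher in experiment 1 and 0 in experiment 2. Socs3 had log2 ratios of 3.29 and 0.79, Syk, a kinase of antigen receptor signaling, of 1.41 and 0.12, Stat5a of 0.88 and -0.20, and Jak1, a kinase of the shared receptor complex, of -0.92 and -0.28. The 0.79 of Socs3 is the mean of probe sets at 0.45 and 1.13. Of the 12 tested in limma, 0 were called higher and 0 lower, and 1 had an unadjusted p under 0.05. Socs3 passed after median and quantile scaling.

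Genes that mark innate-like T cells were read in part. Of 28 listed, 18 had a probe set and 12 were above the floor. Sox13, Blk, Trgv1 and Itgae were the 4 that were 2-fold or more higher in experiment 1, and Sox13, Blk, Trgv1 and Trgv4 the 4 in experiment 2. Over all genes above the floor the share was 5.25% and 0.855%, and Sox13 is the transgene itself. Itgae, an integrin gene of intraepithelial T cells, had a log2 ratio of 1.04 in experiment 1 and was at the floor in experiment 2. Zbtb16, which encodes the factor PLZF of innate-like T cells, was at the floor in all samples. Eomes, a factor of cytotoxic lymphocytes, was above the floor in the wild-type sample of experiment 1 alone (114.6). Sox13 rose (limma adjusted p = 0.00543, mean log2 ratio 4.29 with a wild type at the floor in experiment 1). It was 1 of 8 genes tested in this list, 0 fell, and 4 had an unadjusted p under 0.05. The kinase gene Blk had log2 ratios of 1.37 and 1.02, both lower limits, and the receptor gamma segments Trgv1 and Trgv4 had at least 1.02 and at least 2.30, and 0.17 and 2.10. Neither Blk nor the gamma segments passed with the settings used here. Trgv1 passed after median and quantile scaling. Over the 7 lists, without the 10 genes themselves, 41 genes were tested, Sox13 was the 1 called, and 7 higher and 0 lower genes had an unadjusted p under 0.05, beside 81 higher and 127 lower of all 3237. The lists were chosen with earlier results of these data known, so nothing is read from the 7 or from the list counts past 2-fold.

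**Figure D3:**
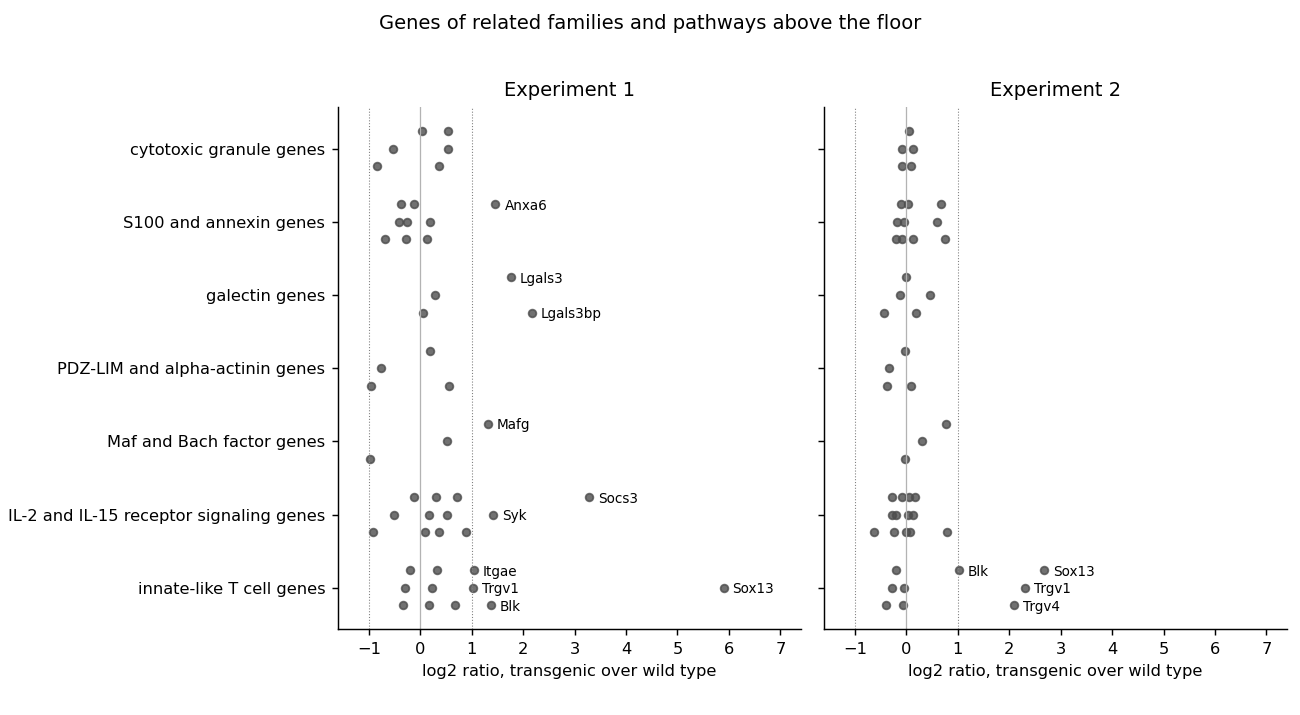
The log2 ratios (transgenic over wild-type intensity) in experiment 1 (left) and experiment 2 (right) for genes of 7 related lists that were above the floor on at least 1 array; each point is a gene, dotted lines mark 2-fold, and names are given past 2-fold. Granule genes lie within 2-fold in both experiments, and the genes past 2-fold in experiment 2 are Blk, Trgv1, Trgv4 and Sox13; lower limits are drawn at their value.

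Markers of other cell types were read beside these results, and their part in them was not tested. Of 19 natural killer cell markers 17 had a probe set and 4 were above the floor, and Ncr1, Klrb1c, Klrd1 and Klrk1 were at the floor in all samples. Fcer1g read 378.8 and 307.4 in experiment 1, and Tyrobp was at least 1.64-fold higher in the transgenic sample of experiment 2. Klra7 had a log2 ratio of -0.33 in experiment 1, and Klrb1b was at least 1.29-fold lower in experiment 2. Their summed intensity, with the floor of 100 given to lower signals, was 1726 in the transgenic and 1693 in the wild-type sample of experiment 1 and 1764 and 1729 in experiment 2, where 10 of 12 and 12 of 14 genes contributed only the floor. For the myeloid list the sums were 3350.1 and 3871 in experiment 1 and 2606 and 2531 in experiment 2, with 1 gene higher and 4 lower in experiment 1 and 3 higher and 4 lower in experiment 2. Lyz2 had log2 ratios of -0.32 and at least 1.35, Cd68 of -0.13 and 0.63 and Cd14 of -0.12 and -0.19, and Csf1r, Elane and Csf3r had -0.89, -0.36 and -0.14 in experiment 2. For the B cell list the sums were 2012 and 1895, and 2214 and 2140. Of that list, 2 genes were higher and 1 lower in experiment 1, and 3 were higher and 4 lower in experiment 2. Cd79a was at the floor in experiment 1 and had a log2 ratio of 0.82 in experiment 2, with a wild type just over the floor. Cd79b had 0.58 and -0.23, and Ms4a1 had -0.14 and at least 0.83. The erythroid sum was higher in the samples where Plac8 and Gzma were: the values were 3736 and 1350, and 2534 and 1158, and Hba-a1 and Hbb-b2 rose in limma (adjusted p = 0.0154 and 0.0399, mean log2 ratios of 2.33 ± 0.36 and 2.29 ± 0.40, limma SE, n = 2 experiments, the latter with a wild type at the floor in experiment 2), although the probe sets of Hba-a1 in experiment 1 had log2 ratios of -0.03 and 3.83. Other genes of the erythroid list did not share this direction: Car2 was at least 1.98-fold lower in experiment 1 and at least 3.11-fold lower in experiment 2 (limma adjusted p = 0.431), Gata1 was lower by at least 1.43-fold in experiment 1 and 1.05-fold in experiment 2, and Alas2 and Epor were at the floor in all samples. No gene, Sox13 and the globins included, was called in the unpaired fit, with a floor of 50 or with low values kept (0 genes each). Mature single-positive markers summed to 2662 and 2598, and 2718 and 3280.3, with single genes shifted in both directions. In experiment 1, 3 were higher and 1 lower, and in experiment 2, 2 were higher and 1 lower. Itgb7 was 2.27-fold higher in experiment 1 and had a log2 ratio of 0.15 in experiment 2. Emb had -0.99 and -0.53. Ccr7 was at least 1.90-fold and Klf2 1.59-fold higher in experiment 1, and both were at the floor in experiment 2. Stromal markers summed to 1417 and 1547, and 2141 and 2593. Of these, 1 was higher and 2 lower in experiment 1, and 0 were higher and 3 lower in experiment 2. Pecam1 was at least 2.15-fold lower in experiment 1 and at least 1.87-fold lower in experiment 2. Markers of the sorted stage summed to 53615 and 61376, and 103913 and 108978. Of the 8 with a probe set in experiment 1, 1 was 2-fold or more higher and 2 were lower, beside 5.25% and 11.7% of all genes above the floor. In experiment 2, 0 of 9 were past 2-fold. Rag2 was 4.07-fold lower in experiment 1 and had a log2 ratio of 0.08 in experiment 2. Cd1d1 was 2.17-fold lower and had -0.05, and Ptcra was 3.05-fold and 1.49-fold higher.

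**Figure D4:**
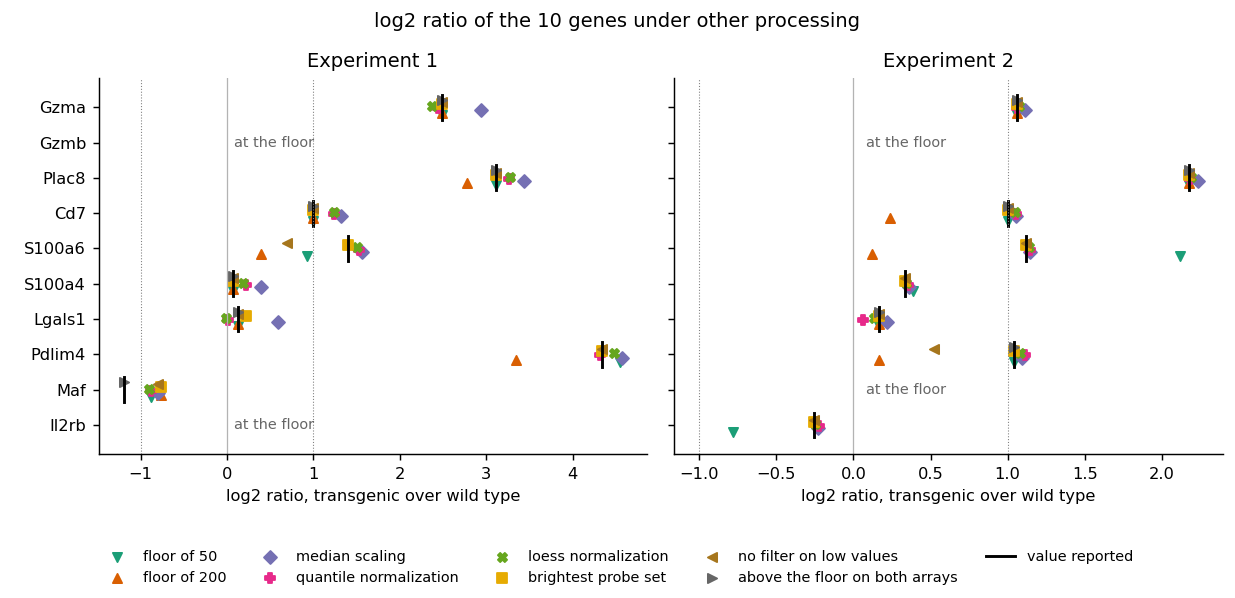
The log2 ratio (transgenic over wild-type intensity) for each of the 10 genes as reported (black bar) and under 8 processing alternatives (symbols) in experiment 1 (left) and experiment 2 (right); dotted lines mark 2-fold. Plac8 and Gzma stay past 2-fold under each alternative in both experiments, whereas S100a6, Cd7 and Pdlim4 drop under 2-fold in experiment 2 with a floor of 200. The summaries and filters could not move Plac8 or Gzma, and the other floors moved only Plac8 in experiment 1.

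Plac8 and Gzma stayed past 2-fold under each processing alternative, though not every alternative could move them. Each had 1 probe set per experiment, above the floor in both genotypes, so the probe set summaries and filters could not change their values. The other floors changed only Plac8 in experiment 1, so the ranges below come mostly from the other scalings. Over the 8 alternatives the log2 ratio of Plac8 ranged from 2.78 to 3.44 in experiment 1 and from 2.18 to 2.23 in experiment 2. That of Gzma ranged from 2.37 to 2.95 and from 1.06 to 1.11. Pdlim4 ranged from 3.34 to 4.57 in experiment 1. These are lower limits, except that with a floor of 50 both genotypes were above it and the ratio was 4.55. As lower limits, S100a6 ranged from 0.40 to 1.56 in experiment 1 and from 0.12 to 2.12 in experiment 2. These 4 genes and Cd7 were higher in the transgenic sample of each experiment under each alternative that gave a value. A ratio with only the transgenic signal above the floor cannot be negative, so its direction is no check. As reported, that was the case for S100a6 in both experiments and for Pdlim4 in experiment 1. Scaling by the median instead of the trimmed mean moved the median log2 ratio of all genes in experiment 1 from -0.05 to 0.30. The share of probe sets past 2-fold that were higher was 28.0% on Mu11K A and 30.6% on Mu11K B, against 60.8% and 68.1% after median scaling, 43.1% and 46.7% after quantile normalization and 39.2% and 42.4% after loess.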

How the data were processed

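RNA of sorted double-positive thymocytes was measured on 6 Affymetrix arrays, 3 per genotype. The deposited values are linear intensities per probe set. Microarray Analysis Software, versions 4 and 5, is named in the design text of the study, and MAS5 stands in the submitters' processing notes of the U74A samples; the scaling target is not given in the sources used here. Mu11K intensities below 0 were present, and no detection calls were used.

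AFFX controls and 21 Mu11K A probe sets with no wild-type value were left out. Scaling set the 2% trimmed mean of every array to 500, then signals under 100 were raised to 100 before log2. A gene's ratio in an experiment is the mean over its probe sets that exceeded this floor in either genotype. Probe sets were named from the platform annotation if they had 1 symbol, updated through RefSeq gene IDs (0 changed). Limma (version 3.58.1, R 4.3.3) tested the ratios of both experiments against 0, two-sided, Benjamini-Hochberg adjusted over 3237 genes at 0.05. It had 12.1 prior degrees of freedom against 1 of a gene's own, and it was tested on simulated data. The 3237 genes include the 7 members measured in both experiments, so counts over all genes tested may include members. Single limma results are given only for genes outside the 10. P-values measure the spread between the 2 experiments, which differed both in pools of cells and in array type, not between mice. Spread from the pools and spread from the array types cannot be told apart. Alternatives were other floors, scalings, probe set summaries and filters, and a fit without pairing by experiment.

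The 10 genes and the lists were chosen with earlier results of these data known. The rule for further names took up to 4 genes with the largest ratios per related list, close relatives of the 10 genes, the first 3 measured and the most shifted marker of each cell type, and the 3 genes most alike to Plac8 and to Gzma; of the markers, those beside a result are given. Genes outside this rule, named after their values were seen, were Ifng, Ccl5, Xcl1, Zbtb16, Eomes, Itgae, Srgn, Lamp1, Anxa2, Lgals9, Klrd1, Klrk1, Klra7, Klrb1b, Fcer1g, Tyrobp, Cd68, Cd14, Csf1r, Elane, Csf3r, Car2, Gata1, Alas2 and Epor. Ptcra, Cd1d1 and Emb were also named after their values were seen. Protein sequences were not used here.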

Additional observations from a re-analysis of the deposited data

How the results depend on the processing

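The count of members 2-fold or more higher in experiment 1 was 4 and stayed between 3 and 5, except among probe sets above the floor on both arrays, where it was 2; S100a6 and Pdlim4 have no value there. In experiment 2 it was 5 and stayed at 4 or 5, except with a floor of 200, where it was 2. Lgals1 had a log2 ratio of -0.015 in experiment 1 after loess. Of 121 values of single members under the processing alternatives, 103 kept their direction and their side of 2-fold, 14 came within 2-fold, 3 came to exceed it and 1 changed sign. Some of the 103 could not change, since summaries and filters leave a member with 1 probe set above the floor in both genotypes as it is. A ratio with only 1 genotype above the floor takes its direction from that genotype, so its sign is no check either.

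Leaving out an experiment gives a value with no test: the mean log2 ratio of Plac8 of 2.64 became 2.18 without experiment 1 and 3.11 without experiment 2, that of Gzma of 1.77 became 1.06 and 2.49, and that of Pdlim4 of 2.69 became 1.04 and 4.34. For Pdlim4 the values that include experiment 1, 2.69 and 4.34, are lower limits.

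Probe sets past 2-fold in either direction numbered 632 on Mu11K A, 718 on Mu11K B and 109 on U74A, and with a floor of 200 they numbered 410, 460 and 47; on U74A they numbered 289 with a floor of 50. The limma fit called 5 genes, 0 in the unpaired fit without the experiment as a block, 0 when the floor was 50, 0 when low values were kept, 1 if the brightest probe set stood for each gene, 2 above the floor on both arrays, 8 after loess, 15 after quantile normalization and 26 after median scaling. Of the related lists it called 1 gene, against 0 in the unpaired fit, 0 when the floor was 50, 0 when low values were kept, 0 if the brightest probe set stood for each gene, 0 above the floor on both arrays, 3 after quantile normalization and 4 after median scaling. The counts over all genes do not leave out the members. The causes were not tested. Signal over the floor limits the members: Gzmb in both experiments, Maf in experiment 2 and Il2rb in experiment 1 were at the floor in both genotypes, and S100a6 in both experiments, Pdlim4 in experiment 1 and S100a4 and Il2rb in experiment 2 had a genotype under it.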
